A study of Mus musculus with 19 samples.

Results

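The fatty acid binding proteins *Fabp1* to *Fabp7* were followed across 19 mouse RNA-Seq libraries. The members were taken by gene symbol, which gave 7 of the 55740 genes listed in the 3 deposited tables. The tables of 7 tissues and of brown adipose tissue (BAT) list all 7. The table of inguinal white adipose tissue (iWAT), which lists 13756 genes, holds 4 of them, *Fabp1*, *Fabp3*, *Fabp4* and *Fabp5*. Liver, small intestine, brain, heart, brown and white adipose tissue and tibialis anterior muscle of C57BL/6J wild-type (WT) mice gave 1 library each, and no treatment is recorded for them. The depot of the white adipose library and whether 1 mouse gave all 7 are not stated. iWAT and BAT were each profiled in 3 WT and 3 MCK-Musclin libraries, all from mice kept at 8 °C for 1 week. In MCK-Musclin mice the muscle creatine kinase promoter drives *Musclin* (gene symbol *Ostn*), a secreted peptide, in skeletal muscle. The study describes the cold-exposed animals as male, chow-fed and 5 months old, and the transgenic lines as backcrossed to C57BL/6J. Which founder line was sequenced is not given in the sources used here. The study's reporting summary describes its RNA-Seq samples as coming from separate animals, and the labels do not tie a library to a named mouse.

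Fatty acid binding proteins are small cytosolic proteins that hold a fatty acid or another lipid inside a barrel and carry it between membranes, lipid droplets, mitochondria and the nucleus. Each is best known from the tissue where it is abundant. *Fabp1* is the liver form, *Fabp2* the intestinal form, *Fabp3* the heart and muscle form, *Fabp4* the adipocyte form, *Fabp5* the epidermal form, *Fabp6* the ileal form, which binds bile acids, and *Fabp7* the brain form. In brown fat, fatty acids fuel heat production and activate UCP1, the uncoupling protein of thermogenic mitochondria. Several members are targets of peroxisome proliferator-activated receptors (PPARs), nuclear receptors for fatty acids.

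The members share a gene structure. In the GENCODE annotation of GRCm38, the transcript examined for each gene has 4 exons, with a coding sequence of between 127 codons in *Fabp1* and 135 codons in *Fabp5*. *Fabp4* (ENSMUSG00000062515) lies on the minus strand of chromosome 3 from 10204088 to 10208576, and *Fabp5* (ENSMUSG00000027533) on the plus strand of chromosome 3 from 10012548 to 10016607, 187 kb away. *Pmp2* and *Fabp9* lie between this pair and *Fabp12* beyond *Fabp4*. *Fabp2* (ENSMUSG00000023057) lies on chromosome 3 from 122895072 to 122899506. *Fabp3* (ENSMUSG00000028773) lies on chromosome 4 from 130308595 to 130315463, and *Fabp1* (ENSMUSG00000054422) on chromosome 6 from 71199827 to 71205023. *Fabp7* (ENSMUSG00000019874) lies on chromosome 10 from 57784881 to 57788450, and *Fabp6* (ENSMUSG00000020405) on chromosome 11 from 43596049 to 43601540. In global alignments of the coding sequences, *Fabp3* shared 66.4% of bases with *Fabp7* and 64.8% with *Fabp4*, the closest pairs. *Fabp4* and *Fabp5* shared 59.8%, and the least alike of the 21 pairs, *Fabp2* and *Fabp4*, shared 47.6%.

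Promoter sequences from RefSeq (GRCm38.p6), with 250 bases before and 50 bases after the annotated start, were found for *Fabp1*, *Fabp2*, *Fabp3*, *Fabp6* and *Fabp7*. Those of *Fabp1*, *Fabp2* and *Fabp3* are shown because *Fabp1* led the family in liver and small intestine, *Fabp2* had its highest level in small intestine and *Fabp3* led in heart, and because *Fabp3* was the member called different between the genotypes. They lie at chr6:71199629-71199928, chr3:122894822-122895121 and chr4:130308488-130308787, all on the plus strand, and are written 5′ to 3′ with capitals for a DR1 element or a TATA box.
Fabp1: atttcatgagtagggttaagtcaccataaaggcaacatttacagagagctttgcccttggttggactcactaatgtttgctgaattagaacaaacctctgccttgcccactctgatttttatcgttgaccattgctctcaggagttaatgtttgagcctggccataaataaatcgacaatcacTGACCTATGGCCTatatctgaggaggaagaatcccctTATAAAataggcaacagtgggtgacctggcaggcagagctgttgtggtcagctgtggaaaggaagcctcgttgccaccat
Fabp2: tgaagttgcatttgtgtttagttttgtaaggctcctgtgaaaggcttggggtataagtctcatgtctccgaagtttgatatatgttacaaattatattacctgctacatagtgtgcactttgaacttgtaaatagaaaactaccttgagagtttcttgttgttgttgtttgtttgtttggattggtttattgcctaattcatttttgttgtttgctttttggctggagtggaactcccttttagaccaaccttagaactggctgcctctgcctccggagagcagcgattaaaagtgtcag
Fabp3: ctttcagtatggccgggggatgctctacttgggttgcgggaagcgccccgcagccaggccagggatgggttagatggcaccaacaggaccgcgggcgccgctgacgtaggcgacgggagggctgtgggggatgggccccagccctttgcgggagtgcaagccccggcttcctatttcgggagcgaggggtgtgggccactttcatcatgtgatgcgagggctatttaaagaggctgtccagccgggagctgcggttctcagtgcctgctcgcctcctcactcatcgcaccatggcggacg
The DR1 element, which PPARs and other nuclear receptors bind, was searched on both strands as 2 copies of AGGNCA spaced by any 1 base. It matched the *Fabp1* promoter from position -67 to -55 before the start, on the minus strand, and none of the other 4 promoters, while 0.381% of all 32851 promoters of this length held a match. The single site AGGTCA, held by 16.3% of all promoters, matched *Fabp1* at 2 places, 1 of them inside the DR1 match, and *Fabp7* at 1 place. TATAAA, the TATA box, held by 13.6% of all promoters, matched *Fabp1* from -30 to -25 and *Fabp6* on the minus strand. CTA and TAG spaced by any 4 bases, the site of the muscle factor MEF2, was in none of the 5 promoters and in 3.69% of all. The GATA factor site AGATAA was in none of the 5 and in 11.2% of all, and the E-box CANNTG was in each of the 5 and in 72.3% of all. GC content was 38.7% for *Fabp2*, 45% for *Fabp1* and 65% for *Fabp3*, beside a median of 52.7% over all promoters. A match describes letters in this window and not the binding of a factor.

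Values are FPKM, fragments per kilobase of transcript and per 1e+06 mapped fragments, so that levels can be compared between genes per length. FPKM of a library summed to between 393682 and 711437 in the 7 tissues, 364710 and 384104 in iWAT and 676362 and 720852 in BAT, and the reads behind a value are unknown. The labelled tissues carried their markers, with cardiac markers at a summed 37598 FPKM in heart, neuron markers at 4803 FPKM in brain, hepatocyte markers at 39562 FPKM in liver and enterocyte markers at 5324 FPKM in small intestine. *Ostn*, the check of the transgene, had 0, 0 and 0 FPKM in WT and 37.9, 31.6 and 30.3 FPKM in MCK-Musclin BAT. In iWAT it had 0, 0 and 0.225 FPKM in WT and 0, 5.17 and 4.21 FPKM in MCK-Musclin, so the library labelled MCK-Musclin replicate 1 did not differ from WT in it. The iWAT libraries also differed in skeletal muscle RNA, with 12 fast muscle markers summing to 11.2, 854 and 4794 FPKM in WT and 11.2, 164 and 195 FPKM in MCK-Musclin. The transgene has a muscle promoter, and MCK-Musclin replicate 1 had the lowest muscle sum of its group. The cause of *Ostn* at 0 in that library was not tested. The value does not settle its genotype, and the labels were kept as given.

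The leading member of the family differed among the 7 tissues. *Fabp1* made up 98.5% of the family's FPKM in liver and 59.6% in small intestine. *Fabp3* made up 85.5% in heart and 62.7% in tibialis anterior muscle, *Fabp4* 98.2% in white and 83.2% in brown adipose tissue, and *Fabp5* 61.3% in brain. As a share of all FPKM in a library, the 7 members reached 1.55% in white adipose tissue, 1.14% in liver, 0.628% in brown adipose tissue, 0.605% in small intestine, 0.251% in heart, 0.0538% in tibialis anterior muscle and 0.0356% in brain. With 1 library per tissue these are descriptions without a test or a replicate error. In bulk tissue, fewer cells of a type and less RNA per cell cannot be told apart.

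**Figure D1:**
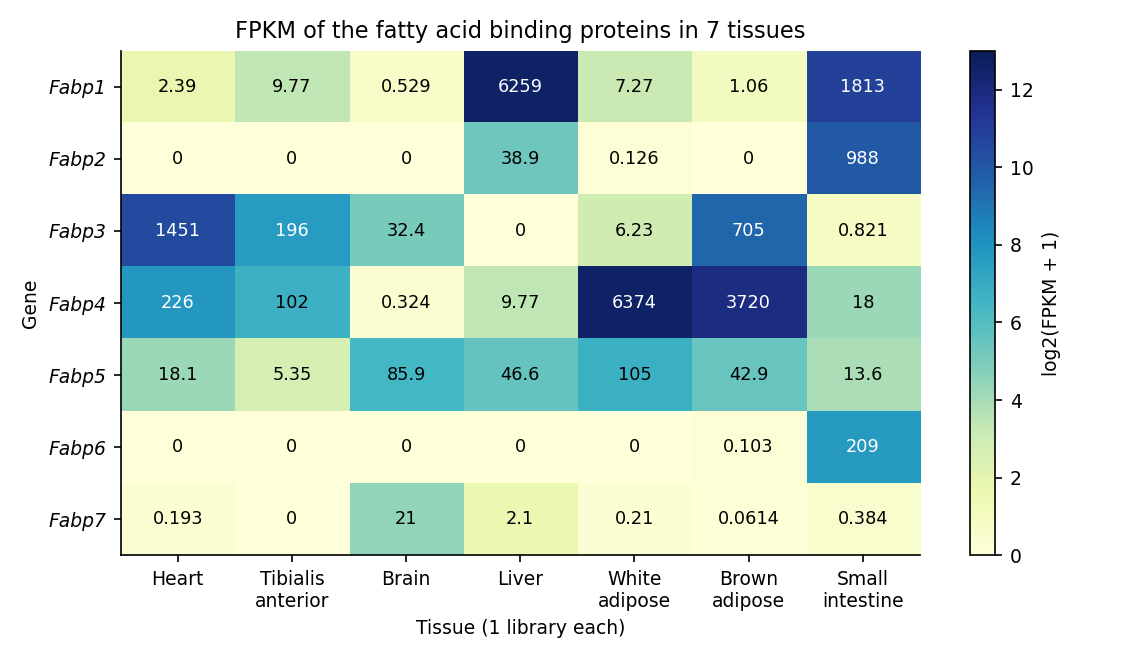
FPKM of *Fabp1* to *Fabp7* (rows) in 7 tissues of WT mice (columns, 1 library each), with colour on a log scale. The highest cells are *Fabp4* at 6374 FPKM in white adipose tissue and *Fabp1* at 6259 FPKM in liver, and *Fabp5* is the member above 1 FPKM in all 7 tissues.

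*Fabp1*, a carrier of fatty acids in hepatocytes and enterocytes, had 6259 FPKM in liver, where it ranked 13 among all genes, and 1813 FPKM in small intestine. In the other 5 tissues it lay between 0.529 FPKM in brain and 9.77 FPKM in tibialis anterior muscle, so liver held 77.3% and small intestine 22.4% of its summed FPKM. *Fabp2*, which serves the uptake of dietary fat, had 988 FPKM in small intestine, 38.9 FPKM in liver and 0.126 FPKM in white adipose tissue, and is listed at 0 in the other 4. *Fabp1* exceeded *Fabp2* 1.84 times in small intestine and 161 times in liver. The 6 enterocyte markers summed to 99.9 FPKM in that liver library and 5324 FPKM in small intestine. In liver *Apoa4*, an apolipoprotein, had 53.8 FPKM and *Anpep*, an aminopeptidase, 45.97 FPKM. The other 4, *Vil1*, *Alpi*, *Lct* and *Sis*, lay between 0.00934 and 0.0239 FPKM there and between 25.7 and 639.7 FPKM in small intestine. The part of enterocytes in the liver value of *Fabp2* was not tested. *Fabp6*, the bile acid carrier of the ileum, had 209 FPKM in small intestine and 0.103 FPKM in brown adipose tissue, and is listed at 0 in the other 5.

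Genes of bile acid and fat absorption are set beside these 3 members. *Slc10a2*, the apical bile acid transporter, had 71.5 FPKM in small intestine and 9.31 FPKM in liver. *Slc51b*, a subunit of the basolateral exporter, had 423 FPKM in small intestine and is listed at 0 elsewhere. *Nr1h4*, the bile acid receptor FXR, had 58.01 FPKM in liver and 25.01 FPKM in small intestine. *Mttp*, which loads lipid onto apolipoprotein B, had 412 FPKM in small intestine and 77.1 FPKM in liver, and the apolipoprotein gene *Apoa4* had 2406 and 53.8 FPKM. *Rbp2*, a retinol carrier of the same superfamily, had 1137 FPKM in small intestine and at most 0.0729 FPKM in another tissue.

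*Fabp3*, which carries fatty acids in oxidative muscle, had 1451 FPKM in heart, 705 FPKM in brown adipose tissue, 196 FPKM in tibialis anterior muscle, 32.4 FPKM in brain, 6.23 FPKM in white adipose tissue and 0.821 FPKM in small intestine, and is listed at 0 in liver. Heart held 60.7% and brown adipose tissue 29.5% of the sum. The brown adipose library thus stood above that of skeletal muscle and the white adipose library below both. *Cpt1b*, the muscle form of the enzyme that admits fatty acids to mitochondria, was high in the same 3 tissues, with 90.1 FPKM in heart, 154 FPKM in brown adipose tissue and 45.5 FPKM in tibialis anterior muscle, and at most 1.39 FPKM in the other 4.

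Part of the *Fabp3* signal is uncertain in its origin. Of the 774 stretches of 50 bases in its transcript, 37.3% also occur in other annotated genes, most of them in the pseudogene *Fabp3-ps1* on chromosome 10 from 86731987 to 86732388. The rest occur in *Zcchc17* and *Gm10570*, which overlap *Fabp3* on the other strand, and reads were counted without strand. *Fabp3-ps1* had 21.1 FPKM in heart, 13.9 FPKM in brown adipose tissue and 6.03 FPKM in tibialis anterior muscle, and *Fabp3* stood between 31.1 and 435 times above it in the 5 tissues where both were above 0. *Zcchc17* lay between 11.2 FPKM in heart and 43.8 FPKM in brain.

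*Fabp4*, the carrier of adipocytes that capillary endothelium also expresses, had 6374 FPKM in white and 3720 FPKM in brown adipose tissue, where it ranked 6 and 21 among all genes. It had 226 FPKM in heart, 102 FPKM in tibialis anterior muscle, 17.97 FPKM in small intestine, 9.77 FPKM in liver and 0.324 FPKM in brain. In heart and muscle, 6 adipocyte markers summed to 1.33 and 3.49 FPKM, beside 7909 FPKM in white and 2149 FPKM in brown adipose tissue. The 8 endothelial markers summed to 382 FPKM in white adipose tissue, 339.7 FPKM in brown adipose tissue, 199 FPKM in heart, 97.7 FPKM in tibialis anterior muscle, 57.2 FPKM in liver, 48.9 FPKM in small intestine and 45.7 FPKM in brain. The part of endothelial cells in the *Fabp4* levels was not tested.

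*Fabp5*, a close relative of *Fabp4* found in many cell types, had the lowest share of the 7 in its highest tissue. It had 105 FPKM in white adipose tissue, 85.9 FPKM in brain, 46.6 FPKM in liver, 42.9 FPKM in brown adipose tissue, 18.1 FPKM in heart, 13.6 FPKM in small intestine and 5.35 FPKM in tibialis anterior muscle. White adipose tissue held 32.98% and brain 27.1% of the sum, but with median-ratio scaling of the libraries brain came first. *Fabp4* exceeded *Fabp5* 60.96 times in white and 86.7 times in brown adipose tissue, and *Fabp5* was the higher of the pair in brain and liver. Of its 50-base stretches, 5.48% also occur in 5 other annotated genes.

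*Fabp7*, known from radial glia and astrocytes, had 21.03 FPKM in brain, 2.105 FPKM in liver and at most 0.384 FPKM elsewhere. Brain held 87.7% of the sum, although *Fabp5* at 85.9 FPKM and *Fabp3* at 32.4 FPKM were higher there. Of the remaining family genes, *Fabp9* and *Fabp5l2* are listed at 0 in all 7 tissues, *Fabp12* had 0.0321 FPKM in brown adipose tissue alone, and *Pmp2*, the myelin form, reached 0.167 FPKM in brain.

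**Figure D2:**
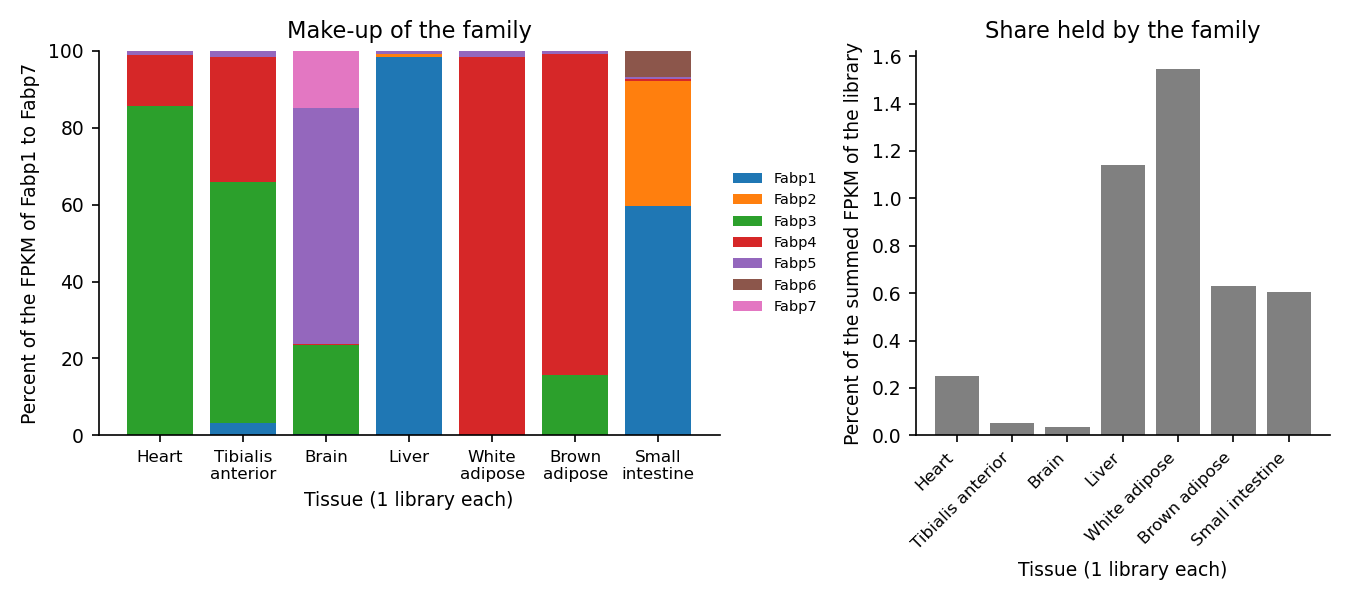
Make-up of the family by tissue, as the percent of the 7 members' FPKM held by each, and the percent of each library's summed FPKM held by the 7 members (1 library per tissue). *Fabp1* fills 98.5% of the family in liver and *Fabp4* 98.2% in white adipose tissue, and the family's share of the library runs from 0.0356% in brain to 1.55% in white adipose tissue.

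The most similar tissue patterns were taken from the 5 highest Pearson correlations of log2(FPKM + 1) over the 7 tissues, among 10405 genes with at least 10 FPKM in some tissue. All genes share these 7 libraries, and any gene of 1 tissue correlates with the others of that tissue. For *Fabp1* they were *Apoa1* (r = 0.999), *Cyp3a11*, *Slc2a2*, *Aadac* and *Apoc3*. *Fabp2* was followed by *Sult1b1* (r = 0.9998), *Slc10a2*, *Mgam* and *Gm11437*. The list for *Fabp3* was *Fabp3-ps1* (r = 0.968), *Mfn2*, *Egln1*, *Smim8* and *Dlat*. *Fabp4* had *Slfn5* (r = 0.994), *Pnpla2*, *Klf2*, *Ushbp1* and *Dnajc4*, of which *Pnpla2* encodes the first lipase of triglyceride breakdown. *Fabp5* had *Tpst1* (r = 0.986), *Ctif*, *Fbxl20*, *Pls3* and *Plbd2*. *Fabp7* had *Chrna4* (r = 0.994), *Ncam2*, *Caln1* and *Gabbr2*, of which *Chrna4* encodes a receptor subunit of neurons. *Fabp6*, whose values rest on small intestine alone, had 302 genes above r = 0.99, the first being *Defa29*. Between members the values ran from −0.801 for *Fabp1* and *Fabp3* to 0.881 for *Fabp1* and *Fabp2*.

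In cold-exposed iWAT, *Fabp3* was called lower in MCK-Musclin mice and *Fabp1*, *Fabp4* and *Fabp5* were not called. The comparison asks whether Musclin from muscle changes the fat of these mice. *Fabp3* had 18.4, 52.1 and 104 FPKM in WT and 21.2, 6.83 and 2.14 FPKM in MCK-Musclin, or 58.1 ± 42.9 against 10.04 ± 9.91 FPKM (SD, n = 3). WT replicates 2 and 3 were the highest and MCK-Musclin replicates 2 and 3 the lowest, but MCK-Musclin replicate 1 lay above WT replicate 1, so the groups overlapped. The log2 fold change was −2.54 (SE 0.80, 95% interval −4.42 to −0.66). The study's cutoff for iWAT asks for a log2 fold change beyond 0.5 and p under 0.05 before adjustment. The study took p from DESeq2, whereas p here came from limma on FPKM. On the limma values *Fabp3* passed this cutoff, at an unadjusted p of 0.0148, but its adjusted p in limma was 0.1998. Thus 1 of 4 members was called lower and none higher, where 0.902% of the 12197 genes tested were called lower and 5.04% higher. In limma 0% of genes had an adjusted p under 0.05 and 16.5% an unadjusted p under 0.05, 2012 genes. Without WT replicate 1 the adjusted p was under 0.05 for 86 genes, and without MCK-Musclin replicates 2 or 3 for 2 and 1. *Fabp3*, with an adjusted p of 0.119, 0.328 and 0.431 in those limma fits, was not among them. The split of 110 lower and 615 higher genes became 223 and 655 after rescaling to TPM and 187 and 424 with median-ratio scaling.

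The *Fabp3* call depended on 1 library. Without WT replicate 3, which had the highest sum of muscle markers, the log2 fold change was −1.98 with an unadjusted p of 0.0511 in limma, and the call was lost. Among the fits without 1 library, the log2 fold change furthest from 0 came without MCK-Musclin replicate 1. It was −3.26 with an unadjusted p of 0.00365 and an adjusted p of 0.192 in limma. The nearest to 0 came without MCK-Musclin replicate 3, at −1.85 with an unadjusted p of 0.0471 and an adjusted p of 0.431 in limma.

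**Figure D3:**
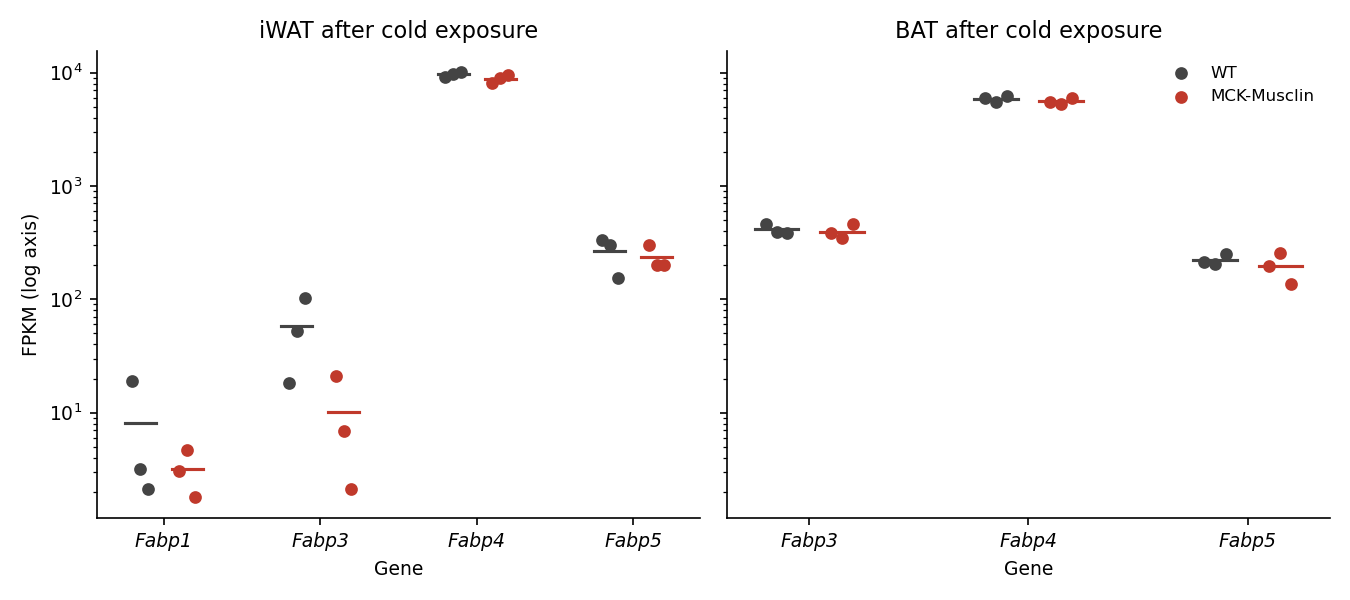
FPKM on a log axis of the members listed above 0 in cold-exposed iWAT (*Fabp1*, *Fabp3*, *Fabp4*, *Fabp5*) and BAT (*Fabp3*, *Fabp4*, *Fabp5*), with a point for each of 3 WT and 3 MCK-Musclin libraries and bars at the group means. *Fabp3* in iWAT spreads from 2.14 to 104 FPKM, while *Fabp4* stays between 8166 and 10117 FPKM in iWAT.

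Most of the listed markers of brown and beige adipocytes moved with *Fabp3*. *Ucp1* had 130.2, 248 and 346 FPKM in WT and 173, 31.6 and 2.91 FPKM in MCK-Musclin, the same order of libraries within each genotype as *Fabp3*. *Cidea*, a lipid droplet protein of brown fat, had 290.5, 358 and 427 FPKM against 294, 103 and 70.2 FPKM, in that order again. *Elovl3*, *Dio2*, *Cox7a1* and *Cpt1b* also kept it. *Ppargc1a* and *Cox8b* did not in WT, with 7.16, 7.23 and 6.51 FPKM and 52.9, 92.8 and 70.3 FPKM. Of 8 brown and beige markers 6 were called lower (*Ucp1*, *Cidea*, *Elovl3*, *Ppargc1a*, *Cox7a1* and *Cpt1b*), beside 0.902% of all genes tested. The median log2 fold change of the 8 was −1.44, beside 0.06 over all genes. None of the 12 fast muscle markers was called, with all 12 below 0 and a median of −2.19. They summed to 11.2, 854 and 4794 FPKM in WT and 11.2, 164 and 195 FPKM in MCK-Musclin. The sum followed the order of *Fabp3* in WT and the opposite order in MCK-Musclin. Tibialis anterior muscle, in its separately made table, had a sum of 143860 FPKM for these markers, and the sum in WT replicate 3 was 3.33% of that. The same percent of that muscle's *Fabp3* is 6.54 FPKM, of 104 FPKM in the library, and in WT replicate 2 it is 1.17 of 52.1 FPKM. These percents take the muscle in iWAT to have the profile of tibialis anterior. Slow muscle markers did not keep that proportion. *Myh7* had 10.5 FPKM in WT replicate 3 and 8.41 FPKM in tibialis anterior muscle, and *Tnnt1* had 17.4 and 14.7 FPKM. *Tnnt2* went the other way, with 1.04 and 74.4 FPKM. The parts of muscle and of beige adipocyte number in the *Fabp3* result were not tested. *Zcchc17*, which overlaps *Fabp3*, lay between 28.9 and 45.1 FPKM in the 6 libraries.

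**Figure D4:**
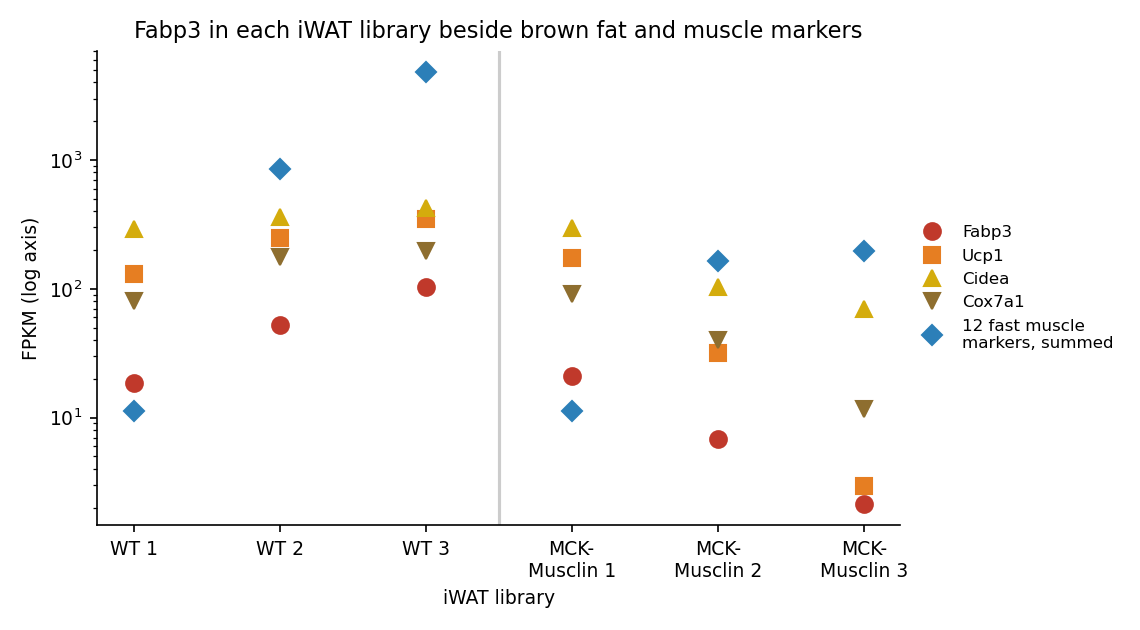
FPKM on a log axis of *Fabp3*, *Ucp1*, *Cidea*, *Cox7a1* and the sum of 12 fast muscle markers in each of the 6 iWAT libraries. *Fabp3* and the 3 brown fat genes are highest in WT replicate 3 and lowest in MCK-Musclin replicate 3, and the muscle sum is near 11.2 FPKM in the first library of both genotypes.

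*Fabp4* was the first or second most abundant gene of every iWAT library. It had 9085, 9792 and 10117 FPKM in WT and 8166, 8891 and 9469 FPKM in MCK-Musclin, or 9665 ± 528 against 8842 ± 653 FPKM (SD, n = 3). The groups overlapped, and the log2 fold change was −0.13 (SE 0.15, 95% interval −0.48 to 0.22), with an adjusted p of 0.701 in limma. *Fabp5* had 335, 302 and 155 FPKM in WT and 303, 202 and 201 FPKM in MCK-Musclin. Its lowest value was in WT replicate 3 and the groups overlapped, with a log2 fold change of −0.12 (SE 0.31, 95% interval −0.83 to 0.60) and an adjusted p of 0.8801 in limma.

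*Fabp1* was low in iWAT, with 19.01, 3.21 and 2.12 FPKM in WT and 3.06, 4.67 and 1.82 FPKM in MCK-Musclin. WT replicate 1 stood apart and the rest overlapped. The log2 fold change was −0.67 (SE 0.66, 95% interval −2.22 to 0.87), with an adjusted p of 0.647 in limma, and it was 0.15 without WT replicate 1. The hepatocyte genes *Alb* and *Apoa2* were also highest in that library. *Alb* had 26.99, 16.6 and 8.502 FPKM in WT and 11.3, 18.6 and 7.29 FPKM in MCK-Musclin, and *Apoa2* had 17.1, 1.27 and 0.412 FPKM and 2.16, 4.87 and 0 FPKM. The ratio of *Fabp1* to *Apoa2* was 1.11 in WT replicate 1 and 1.07 in liver, and between 0.959 and 5.14 over the 5 iWAT libraries with *Apoa2* above 0. Its ratio to *Alb* was not alike in the 2 samples. *Fabp1* had 19.01 FPKM beside 26.99 FPKM of *Alb* in WT replicate 1, and 6259 FPKM beside 22399 FPKM in liver. The 4 listed hepatocyte markers, mostly *Cyp2e1*, summed to 1241 to 1644 FPKM in WT and 834 to 1455 FPKM in MCK-Musclin. *Cyp2e1* had 1990 FPKM in white adipose tissue and 3775 FPKM in liver among the 7 tissues, so this sum is not particular to liver. The part of liver transcripts in the *Fabp1* values was not tested.

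Within iWAT libraries, the log2 ratio of *Fabp5* to *Fabp4* was −5.26 ± 0.67 in WT and −5.25 ± 0.44 in MCK-Musclin (SD, n = 3, exact two-sided permutation p = 0.9). That of *Fabp3* to *Fabp4* was −7.66 ± 1.14 in WT and −10.08 ± 1.52 in MCK-Musclin (SD, n = 3, exact two-sided permutation p = 0.2). The family took 2.58, 2.78 and 2.82% of the summed FPKM in WT and 2.26, 2.39 and 2.52% in MCK-Musclin. These shares did not overlap, with a difference of the means (MCK-Musclin minus WT) of −0.338 percentage points. The exact two-sided permutation p of 0.1 is the smallest that 3 libraries against 3 allow. The family's FPKM itself overlapped, at 9458 to 10379 in WT and 8493 to 9674 in MCK-Musclin. The summed FPKM that the shares are taken of did not overlap, at 364710 to 368500 in WT and 376564 to 384104 in MCK-Musclin. Of single genes, 5.44% had every MCK-Musclin library below and 17.9% every one above those of WT. *Fabp4* made up between 96.1 and 97.9% of the family, *Fabp5* between 1.498 and 3.56% and *Fabp3* between 0.0221 and 0.998%.

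In cold-exposed BAT, *Fabp3*, *Fabp4* and *Fabp5* were expressed and none was called. *Fabp4* had 5910, 5522 and 6174 FPKM in WT and 5503, 5289 and 5937 FPKM in MCK-Musclin, with a rank between 16 and 19 among all genes. *Fabp3* had 462, 394 and 385 FPKM in WT and 381, 347 and 458 FPKM in MCK-Musclin. *Fabp5* had 215, 203 and 250.3 FPKM in WT and 197, 259 and 137 FPKM in MCK-Musclin. The groups overlapped in all 3 genes, and *Fabp3* lay above *Fabp5* in each of the 6 libraries. *Fabp1*, *Fabp2*, *Fabp6* and *Fabp7* are listed at 0 in all 6 and were not tested.

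The log2 fold change in BAT was −0.07 (SE 0.12, 95% interval −0.36 to 0.22) for *Fabp3*, with an adjusted p of 0.983 in limma. For *Fabp4* it was −0.07 (SE 0.08, 95% interval −0.26 to 0.11), with an adjusted p of 0.968 in limma, and for *Fabp5* −0.21 (SE 0.21, 95% interval −0.71 to 0.29), with 0.968. The study's cutoff for BAT asks for a log2 fold change beyond 0.3 and p under 0.05 before adjustment. Applied to the limma values, it called 0 of 3 members. None of the 3 had an unadjusted p under 0.05 in limma. Without a filter on low values that of *Fabp4* was 0.00799, with an adjusted p of 0.556 in limma. Of the 10893 genes tested, 2.15% were called lower and 1.85% higher, 4.89% had an unadjusted p under 0.05 and 0.00918%, 1 gene, an adjusted p under 0.05. The groups did not overlap, with MCK-Musclin lower, in 5.63% of genes and, with MCK-Musclin higher, in 4.38%, and 52.3% of genes had a log2 fold change under 0, as had all 3 members. *Fabp3-ps1* had 3.88, 3.998 and 5.95 FPKM in WT and 3.16, 3.37 and 5.697 FPKM in MCK-Musclin.

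Within BAT libraries, the log2 ratio of *Fabp3* to *Fabp4* was −3.83 ± 0.16 in WT and −3.82 ± 0.12 in MCK-Musclin (SD, n = 3, exact two-sided permutation p = 1). That of *Fabp5* to *Fabp4* was −4.72 ± 0.08 in WT and −4.86 ± 0.54 in MCK-Musclin (SD, n = 3, exact two-sided permutation p = 0.7). The family took 0.921, 0.862 and 0.945% of the summed FPKM in WT and 0.899, 0.831 and 0.906% in MCK-Musclin, with overlap and an exact two-sided permutation p of 0.4. *Fabp3* made up between 5.65 and 7.01% of the family here and 15.8% in the single brown adipose library of the 7 tissues, a table made apart. Fast muscle markers summed to 529 to 838 FPKM in WT and 874 to 1925 FPKM in MCK-Musclin BAT. Of these markers 10 of 12 were called higher, beside 1.85% of all genes, and their part in the *Fabp3* values was not tested. *Ucp1* had 3792, 3095 and 2778 FPKM in WT and 3500, 2864 and 3607 FPKM in MCK-Musclin. Of the 8 brown and beige markers in BAT, 1 was called lower, *Cox8b*, and 0 higher, beside 2.15% and 1.85% of all genes. Their log2 fold change was under 0 in 4, with a median of 0.0015.

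The genes closest to each member over the 6 libraries of a table were taken among genes with a mean of at least 10 FPKM. They were picked for likeness on the same libraries and are a description. In iWAT, over 5692 genes, *Fabp3* had *Tpcn1* (r = 0.998), *Acaa2*, *Hadh*, *Sdhb* and *Saraf*. *Acaa2*, the last enzyme of mitochondrial beta-oxidation, had 87.8, 121 and 132 FPKM in WT and 92.5, 74.3 and 52.6 FPKM in MCK-Musclin. *Hadh*, the enzyme of the step before, had 208, 223 and 242 FPKM and 199, 179 and 165 FPKM. *Fabp4* had *Tjp1* (r = 0.986), *N4bp2l2*, *Tdrd3*, *Cmbl* and *Bcl2l1*, and *Fabp5* had *Psma7* (r = 0.974), *Dnajb6*, *Get4*, *Sgta* and *Ccnyl1*. In BAT, over 3745 genes, *Fabp3* had *Ncln* (r = 0.985), *Rpl19*, *Lamp1*, *Ppp1r3c* and *Ptges3*. *Fabp4* there had *Bcat2* (r = 0.983), *Ptbp1*, *Gm11914*, *Ptpa* and *Tst*, and *Fabp5* had *Aldh7a1* (r = 0.974), *Pdxdc1*, *Aldh4a1*, *Sh3bgrl* and *Ccny*.

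Fatty acids reach these proteins after lipoprotein lipase (*Lpl*) frees them and CD36 and transporters of the *Slc27a* family take them up. Of 12 genes of uptake and activation tested in iWAT, 1 was called lower and none higher, with a median log2 fold change of −0.10. Over all genes tested there, 0.902% were called lower and 5.04% higher. The called gene, *Slc27a2*, had 2.05, 3.97 and 6.67 FPKM in WT and 2.18, 1.36 and 0.117 FPKM in MCK-Musclin, and in the 7 tissues it had 509 FPKM in liver, 66.7 FPKM in brown and 1.51 FPKM in white adipose tissue. *Cd36* had 567, 634 and 591 FPKM in WT and 463, 534 and 512 FPKM in MCK-Musclin, with a log2 fold change of −0.25 and an adjusted p of 0.306 in limma. *Lpl* had 1439, 1370 and 1305 FPKM in WT and 1220, 1093 and 991 FPKM in MCK-Musclin, with a log2 fold change of −0.32 and an adjusted p of 0.265 in limma. Neither of these 2 passed the cutoff. Their groups did not overlap, with MCK-Musclin lower, as in 5.44% of the 12197 genes tested, while 17.9% were higher without overlap. In BAT 0 of 11 genes were called, with a median of −0.01.

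Other cytosolic lipid carriers were not called, 0 of 5 in iWAT and 0 of 5 in BAT. *Dbi*, the acyl-CoA binding protein, had 5451 to 6239 FPKM in WT and 5134 to 6925 FPKM in MCK-Musclin iWAT, and 2724 to 2776 FPKM and 2316 to 3035 FPKM in BAT. *Scp2*, the sterol carrier protein, had 276 to 302 FPKM in WT and 248 to 274 FPKM in MCK-Musclin iWAT. Of the wider superfamily, *Rbp7*, a retinol binding protein, had 76.5 to 130.2 FPKM in WT and 102 to 119.7 FPKM in MCK-Musclin iWAT and was not called in either depot.

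Of 8 PPAR receptors and partners in iWAT, 2 were called lower and none higher, with a median log2 fold change of −0.31. Over all genes tested, 0.902% were called lower and 5.04% higher. *Ppara*, the receptor tied to fatty acid oxidation, had 2.59, 4.33 and 5.11 FPKM in WT and 3.29, 1.53 and 1.77 FPKM in MCK-Musclin. *Ppargc1a*, a coactivator of mitochondrial genes, had 7.16, 7.23 and 6.51 FPKM in WT and 6.34, 2.96 and 2.01 FPKM in MCK-Musclin. It is also among the brown and beige markers. *Pparg*, the adipocyte receptor, had 105, 73.7 and 98.5 FPKM and 63.2, 84.5 and 57.2 FPKM, with an unadjusted p of 0.0511 and an adjusted p of 0.304 in limma. In BAT 0 of 8 were called, with a median of 0.02.

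Of 16 known PPAR target genes outside the family, 4 were called lower and 1 higher in iWAT, beside 0.902% and 5.04% of all genes. The median log2 fold change of the 16 was −0.40 and 14 were under 0, beside 38.7% of all genes. The lower genes were *Cidea*, *Cpt1b*, the acyl-CoA dehydrogenase *Acadm* and the peroxisomal enzyme *Ehhadh*, of which *Cidea* and *Cpt1b* are also brown and beige markers. The higher gene was *Angptl4*, an inhibitor of lipoprotein lipase, with 14.5, 49.8 and 21.3 FPKM in WT and 48.96, 58.5 and 41.7 FPKM in MCK-Musclin. The adjusted p of the 5 lay between 0.213 and 0.294 in limma. In BAT 0 of 15 were called, with a median of −0.03. None of 6 lipolysis genes was called in either depot, with medians of −0.22 in iWAT and −0.15 in BAT. *Pnpla2* had 1111, 1214 and 1283 FPKM in WT and 906, 1020 and 1023 FPKM in MCK-Musclin iWAT.

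**Figure D5:**
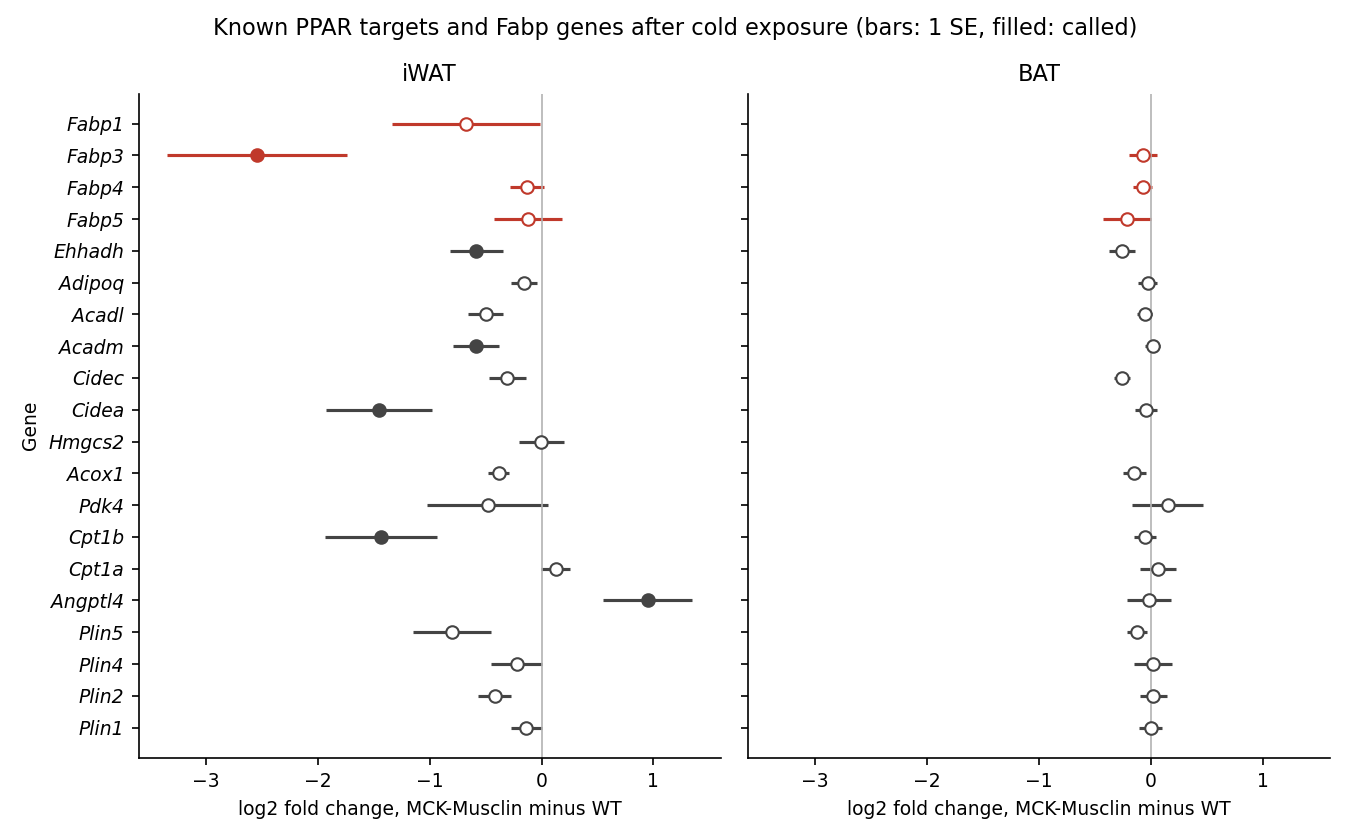
Log2 fold change (MCK-Musclin over WT, on the log2(FPKM + 1) scale) with bars of 1 SE for 16 known PPAR target genes and the tested members of the family in iWAT and BAT. Filled points passed the study's cutoff, with p taken from limma. In iWAT *Fabp3* at −2.54, *Cidea* at −1.45 and *Cpt1b* at −1.44 are the lowest and *Angptl4* at 0.95 the highest, and in BAT no point is filled.

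Markers of other cells that express members of the family are given beside these results. None of the 6 adipocyte markers was called in either depot, and they summed to 5783 to 6091 FPKM in WT and 5048 to 5825 FPKM in MCK-Musclin iWAT. In BAT the adipocyte sums did not overlap, at 1276 to 1391 FPKM in WT and 1199 to 1240 FPKM in MCK-Musclin. None of the 8 endothelial markers was called in either depot, with sums of 248 to 279 FPKM in WT and 242 to 302 FPKM in MCK-Musclin iWAT. Their sums in BAT did not overlap either, at 177 to 191 FPKM in WT and 162 to 172 FPKM in MCK-Musclin. For single genes in BAT, 5.63% had every MCK-Musclin library below those of WT and 4.38% every one above. The part of these cells in the *Fabp4* values was not tested. Markers of macrophages (8 genes), cells that also express *Fabp4* and *Fabp5*, summed to 633 to 664 FPKM in WT and 649.9 to 930.2 FPKM in MCK-Musclin iWAT, with *Cd68* called higher. In BAT they summed to 49.2 to 62.9 FPKM and 48.8 to 136 FPKM, with *Csf1r* called higher. Of all genes tested, 5.04% were called higher in iWAT and 1.85% in BAT.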

How the data were processed

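The 19 libraries were made from poly(A)-selected RNA, extracted with a kit from white fat and with TRIzol from other tissues. According to the study's methods, the authors filtered reads with fastp and Bowtie2, aligned them to mm10 (GRCm38) with HISAT2 2.1.0 and computed FPKM with StringTie, while the processing notes name Cuffdiff. The deposited FPKM were used as given. The iWAT table also holds the authors' group means, fold changes, p-values and FDR, which were not used. Among the lines of each other file, 287 repeat a gene, and each gene was used once. Read depth is unknown, which leaves the counting error of low values unknown.

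Each adipose table was fitted on its own with limma 3.58.1 in R 4.3.3 (eBayes with a trend) on log2(FPKM + 1), for genes with a mean of at least 1 FPKM, with Benjamini-Hochberg adjustment over all genes tested. This scale understates changes of low genes. Ratios and shares were compared by exact permutation tests. The fit was tested on simulated data. Python 3.11.15, numpy 2.4.6, pandas 2.3.3, scipy 1.17.1, Biopython 1.88 and matplotlib 3.10.9 were used.

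Genes named were the members, genes of hand-written lists, the 5 nearest genes of each member (1 for *Fabp2* and 1 for *Fabp7* in the tissue table are not reported here), other *Fabp* genes, neighbours of *Fabp4* and *Fabp5*, and *Ostn*. *Zcchc17* and *Gm10570* were named after their overlap was seen, and *Acaa2* and *Hadh* were picked from the nearest genes after their values were seen. Members and lists were chosen with earlier results of these data known. Alternatives were a pseudocount of 0.1, no filter, a mean of at least 5 FPKM, TPM, median-ratio scaling, eBayes without a trend, a replicate block, family shares without the 10 most abundant other genes, and leaving out each library.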

Additional observations from a re-analysis of the deposited data

How the results depend on the processing

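*Fabp3* in iWAT kept its direction under every alternative run. Leaving out 1 library gave log2 fold changes between −3.26 and −1.85, and 0 to 1 members called lower, 0 without WT replicate 3. In BAT it gave 0 to 1 members called lower, *Fabp5* without MCK-Musclin replicate 2 (log2 fold change −0.43, unadjusted p = 0.0436, adjusted p = 0.868 in limma). Some small differences changed sign when 1 library was left out, and the cause was not tested. These ran between −1.19 and 0.15 for *Fabp1* and −0.46 and 0.091 for *Fabp5* in iWAT (0.016 without WT replicate 2). In BAT they ran between −0.18 and 0.0193 for *Fabp3* (0.012 without WT replicate 1) and −0.43 and 0.0230 for *Fabp5*. The genotype difference in the log2 ratio of *Fabp5* to *Fabp4* ran between −0.37 and 0.26 in iWAT and −0.39 and 0.14 in BAT, and that of *Fabp3* to *Fabp4* in BAT between −0.083 and 0.0800. With median-ratio scaling brain held 24.0% of *Fabp5* over the 7 tissues and came before white adipose tissue.

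Over all genes, the 110 lower and 615 higher calls in iWAT became 71 and 433 with a mean of at least 5 FPKM, and leaving out 1 library gave 92 to 213 lower and 527 to 844 higher. The 234 and 202 calls in BAT became 702 and 700 without a filter, where most genes had no residual variance and genes with an adjusted p under 0.05 went from 1 to 233, and 114 and 102 with a mean of at least 5 FPKM.

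The labels do not say whether replicate numbers pair the libraries. With group means removed, libraries of the same number correlated at 0.235, 0.0615 and 0.107 in iWAT and −0.0951, −0.00463 and 0.00937 in BAT. These values were not set against libraries of unlike number, so they do not decide on pairing. With the replicate block, *Fabp3* in iWAT had a log2 fold change of −2.54, an unadjusted p of 0.0363 and an adjusted p of 0.284 in limma. The calls over all genes were then 154 and 620 in iWAT and 246 and 214 in BAT, and no call of a member changed.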
